A study of Aspergillus aculeatus with 24 samples.

Results

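In the filamentous fungus Aspergillus aculeatus, 78 of 8615 gene IDs responded to a change of growth medium in opposite directions in different strains. For each strain and day, the medium response M was the log2 ratio of the mean of the 2 wheat bran-soybean libraries to the mean of the 2 glucose libraries, on the deposited values. An ID was a member when M was at least 1.5 on both days in at least 1 strain (it rose) and at most -1.5 on both days in at least 1 other strain (it fell), and the higher group of each such comparison had a mean of at least 100. The medium responses therefore chose the members, and they are given here as a description with no test.

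RNA was sequenced from 3 strains, BCC56535, BCC199 and HUT2365, each grown in a medium with glucose or with wheat bran and soybean and sampled after 72 h (day 3) and 144 h (day 6). There were 12 groups of 2 libraries, labelled replicates A and B, 24 in all. The labels name no genotype beyond the strain, and leave out whether replicates were separate cultures, so the spread behind each p-value is that of these libraries and may be technical. RNA came from bulk mycelium, in which fewer cells of a kind and less RNA per cell cannot be told apart.

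In Aspergillus, glucose represses many genes for the use of other carbon sources through the repressor CreA. Sugars released from plant polysaccharides induce genes for secreted cell wall-degrading enzymes through activators such as XlnR. Filamentous fungi also often carry the genes of a metabolic pathway side by side, and strains of a species can differ in which of these genes they hold and express. The IDs come with no gene names, and 0 of 8615 matched any of the 11152 genes that the reference table lists (assembly Aspac1), so no function is given for any member.

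Values per library are printed as normalized reads, replicate A before replicate B, which are the deposited value less the constant of 1 that every library carries. The libraries held between 19248977 and 30003709 recovered reads. Members took between 0.57% and 2.12% of the normalized reads of a library. The highest value of a member in any library had a median of 6988 and ranged from 265 to 180325, and 70 members reached at least 1000. Of the 78 members, 9 had at most 20 reads in the lower group of a response that made them a member, both replicates together. The spread between replicates was larger for members than for all IDs in 11 of 12 groups. The sources used here do not name the genome that the reads of each strain were aligned to. Differences in how reads of an ID were counted in each strain, and in RNA level, cannot be told apart.

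HUT2365 was on the rising side of most members. By the rule, it rose in 52 and fell in 12 of the 78, whereas BCC199 rose in 18 and fell in 40, and BCC56535 rose in 13 and fell in 30. By ordered pair of strains, 34 members rose in HUT2365 and fell in BCC199, and 21 rose in HUT2365 and fell in BCC56535. A further 13 rose in BCC199 and fell in BCC56535, 7 rose in BCC56535 and fell in BCC199, 6 rose in BCC56535 and fell in HUT2365, and 6 rose in BCC199 and fell in HUT2365. By the rule alone, whatever the other strains did, 4.17% (BCC56535 up), 4.4% (BCC56535 down), 5.33% (BCC199 up), 6.26% (BCC199 down), 6.4% (HUT2365 up) and 4.98% (HUT2365 down) of all 8615 IDs passed, and since the rule used these responses nothing is read from the members' counts. The counts by pair sum to more than 78 because 9 members passed the limit in all 3 strains and so belong to more than 1 pair, while 69 belong to 1 pair.

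**Figure D1:**
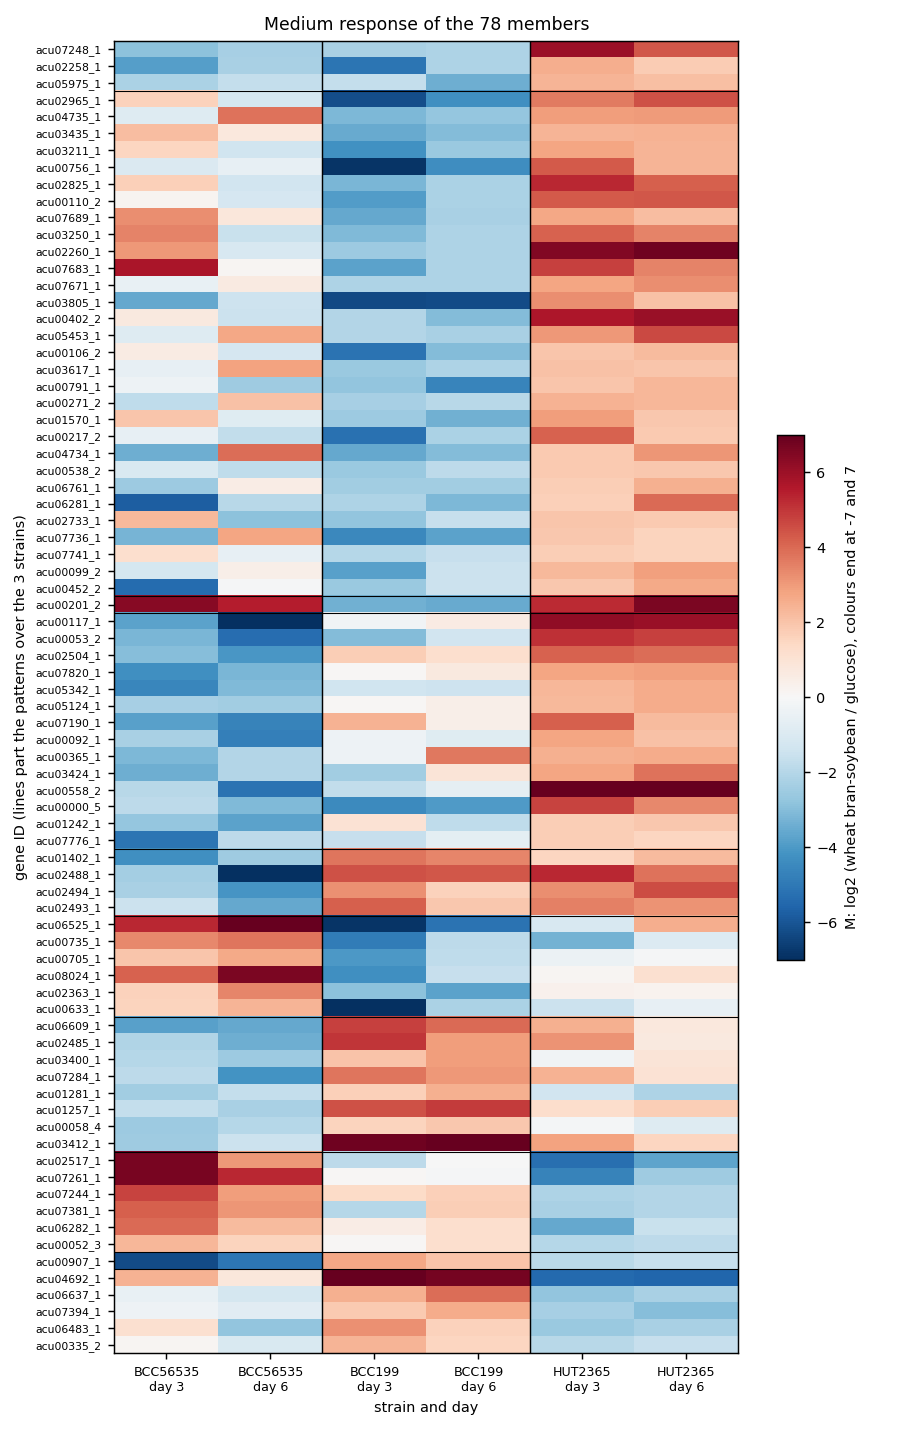
Medium response M (log2 of wheat bran-soybean over glucose, colour scale) of the 78 members, 1 row each, in each strain and on each day (columns), grouped by which strains rose and which fell. HUT2365 rose in 52 of the 78 rows, and in BCC199 40 rows fell.

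Opposite responses were a small share of those that passed the limits in more than 1 strain. In at least 1 strain, 1919 IDs passed the rule, and 613 did so in at least 2. Of these, 535 moved the same way in every strain that passed, and 78 (12.7%) moved in opposite ways, which is 0.905% of all 8615 IDs. The 34 IDs that rose in HUT2365 and fell in BCC199 were 6.17% of the 551 IDs that rose in HUT2365 and 6.31% of the 539 that fell in BCC199. The 6 that rose in BCC199 and fell in HUT2365 were 1.31% of the 459 that rose in BCC199 and 1.4% of the 429 that fell in HUT2365. For comparison, 173 IDs rose in both HUT2365 and BCC199, which was 31.4% and 37.7% of the lists of rising IDs.

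Many members lay near the limit of 1.5. The limiting response of an ID is the smallest absolute M among the values of the pair of strains that made it a member. For an ID in more than 1 pair, the pair with the largest such value was taken. Such an ID can therefore lie nearer to 1.5 in the strain outside that pair. It was between 1.5 and 1.75 in 22 members, between 1.75 and 2 in 16, between 2 and 3 in 32 and above 3 in 8. Between 1.25 and 1.5 lay 41 further IDs with opposite responses. The member just inside was acu00452_2, with M of -2.573 and -1.502 on days 3 and 6 in BCC199, and 1.87 and 2.63 in HUT2365. The ID just outside was acu00399_1, with M of -1.499 and -2.02 in BCC56535, and 2.59 and 1.55 in BCC199.

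With 2 libraries per group, membership also depended on single libraries. The rule gave 81 IDs on replicate A alone and 68 on replicate B alone, and 35 IDs were in both sets with the same pair and direction. Leaving out each library in turn, 42 of the 78 members stayed members every time and 36 did not. The libraries whose removal ended the most memberships, 7 each, were BCC56535 glucose day 3 B and HUT2365 wheat bran-soybean day 3 B. In 6 members the sign of a response that made them a member changed without a library. Without BCC56535 glucose day 3 B, M in BCC56535 on day 3 went from -1.85 to 0.91 in acu00000_5 and from -1.92 to 1.40 in acu00558_2. Without BCC56535 glucose day 6 B, M on day 6 went from -2.002 to 0.15 in acu00058_4. Without HUT2365 wheat bran-soybean day 3 B, M in HUT2365 on day 3 went from 2.47 to -0.10 in acu00365_1, from 1.87 to -0.16 in acu00452_2 and from 3.27 to -0.50 in acu03805_1. Of the 31 members named here by pair, pattern or contrast, 15 lost their membership without at least 1 library. In BCC56535 these were acu00000_5, acu00558_2, acu02488_1 and acu02493_1 without glucose day 3 B, acu00633_1 without glucose day 3 A, and acu00365_1 and acu02517_1 without wheat bran-soybean day 6 A. Without wheat bran-soybean day 3 A, acu00000_5, acu00558_2, acu00633_1 and acu02493_1 were lost. In BCC199, acu06525_1 was lost without glucose A of either day, and acu00335_2 without glucose day 6 A or wheat bran-soybean day 6 B. In HUT2365, glucose day 6 B decided acu00335_2 and acu03617_1, glucose day 6 A and wheat bran-soybean day 6 A decided acu06282_1, and glucose day 3 B decided acu04734_1. Wheat bran-soybean day 3 A decided acu00110_2, day 3 B acu00365_1, and day 6 B acu00217_2 and acu07190_1.

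In 71 of the 78 members, the replicates of the 2 media did not overlap in any of the responses that made them a member. Among the 1919 IDs that passed in at least 1 strain this held in 1892, a larger share (98.6%). Of all 8615 IDs, whatever the size of M, 15.0% had media that did not overlap on both days, in opposite directions in a pair of strains. On a fitted scale, 67 of the 78 members had an adjusted p below 0.05 (limma) for these responses on both days and in opposite directions, as did 359 IDs (4.22%) of the 8509 tested. The rule used these same contrasts, so nothing is read from these counts.

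Between BCC56535 and BCC199, the clearest member of the 7 that rose in BCC56535 was acu06525_1, whose RNA was near 0 in a different medium in each strain. BCC56535 held 8.79 and 0 normalized reads in glucose and 212 and 204 in wheat bran-soybean on day 3, and 0 and 2.88 against 366 and 389 on day 6. BCC199 held 167 and 59.6 normalized reads in glucose and 0 and 0 in wheat bran-soybean on day 3, and 144 and 95.1 against 1.10 and 3.51 on day 6. HUT2365 held at most 10.97 in any library. In BCC56535 every wheat bran-soybean library lay above every glucose library, and in BCC199 the order was the opposite. BCC199 held 0 reads in wheat bran-soybean on day 3, and BCC56535 held 3 reads in glucose on day 6, so no fold is given. Without BCC199 glucose A of either day, the remaining library lay under the minimum of 100.

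The second ID by rank in this pair, acu00201_2, rose in HUT2365 as well and is the 1 member that rose in both other strains while it fell in BCC199. BCC56535 held 6.59 and 24.7 normalized reads in glucose and 1095 and 1693 in wheat bran-soybean on day 3, and 0 and 9.59 against 259 and 263 on day 6. BCC199 held 1233 and 947 normalized reads in glucose and 81.5 and 131 in wheat bran-soybean on day 3, and 1014 and 875 against 111 and 53.8 on day 6. HUT2365 held 18.4 and 6.50 normalized reads in glucose and 218 and 791 in wheat bran-soybean on day 3, and 10.8 and 11.9 against 1102 and 1243 on day 6. The groups did not overlap in any strain, and BCC199 was the high strain in glucose and the low strain in wheat bran-soybean on both days. M was 6.39 and 5.50 on days 3 and 6 in BCC56535, -3.35 and -3.50 in BCC199, and 5.23 and 6.57 in HUT2365. BCC56535 held 10 reads in glucose on day 6 over both libraries, so the size of that M depends on the constant of 1. Ranges of M are given over responses with more than 20 reads in the lower group, both replicates together. Below this, M rests on few reads and depends in part on the constant of 1. Over the 7 members, M ran from 1.58 to 6.61 in BCC56535, with 3 of 14 responses left out, and from -7.25 to -1.61 in BCC199, with 2 of 14 left out. All 7 were also called by limma on both days in both strains (0.564% of all tested IDs were).

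The other direction, up in BCC199 and down in BCC56535, held 13 members. acu06609_1 had the largest limiting response. BCC56535 held 1585 and 6377 normalized reads in glucose and 247 and 318 in wheat bran-soybean on day 3, and 359 and 1703 against 80.6 and 91.0 on day 6. BCC199 held 136 and 439.9 normalized reads in glucose and 8351 and 7712 in wheat bran-soybean on day 3, and 251 and 126 against 3182 and 2819 on day 6. BCC199 was below BCC56535 in glucose and far above it in wheat bran-soybean on both days. M was -3.81 and -3.57 in BCC56535 and 4.80 and 3.98 in BCC199. The replicates of BCC56535 in glucose lay apart from each other on both days, with B the higher.

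acu01402_1 was lower in wheat bran-soybean than in glucose in BCC56535 on each day, and its values in that strain were lower on day 6 than on day 3. BCC56535 held 9694 and 12447 normalized reads in glucose and 547 and 583 in wheat bran-soybean on day 3, and 554 and 488 against 91.2 and 95.9 on day 6. BCC199 held 337 and 1226 normalized reads in glucose and 10734 and 10179.8 in wheat bran-soybean on day 3, and 1235 and 669 against 9539 and 10651 on day 6. Media did not overlap in either strain on either day. M was -4.29 and -2.47 in BCC56535 and 3.74 and 3.41 in BCC199. Across the 13 members, M ran from 1.56 to 4.995 in BCC199, with 2 of 26 responses left out, and from -7.14 to -1.52 in BCC56535, and 10 of the 13 were also called by limma (0.541% of all tested IDs).

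**Figure D2:**
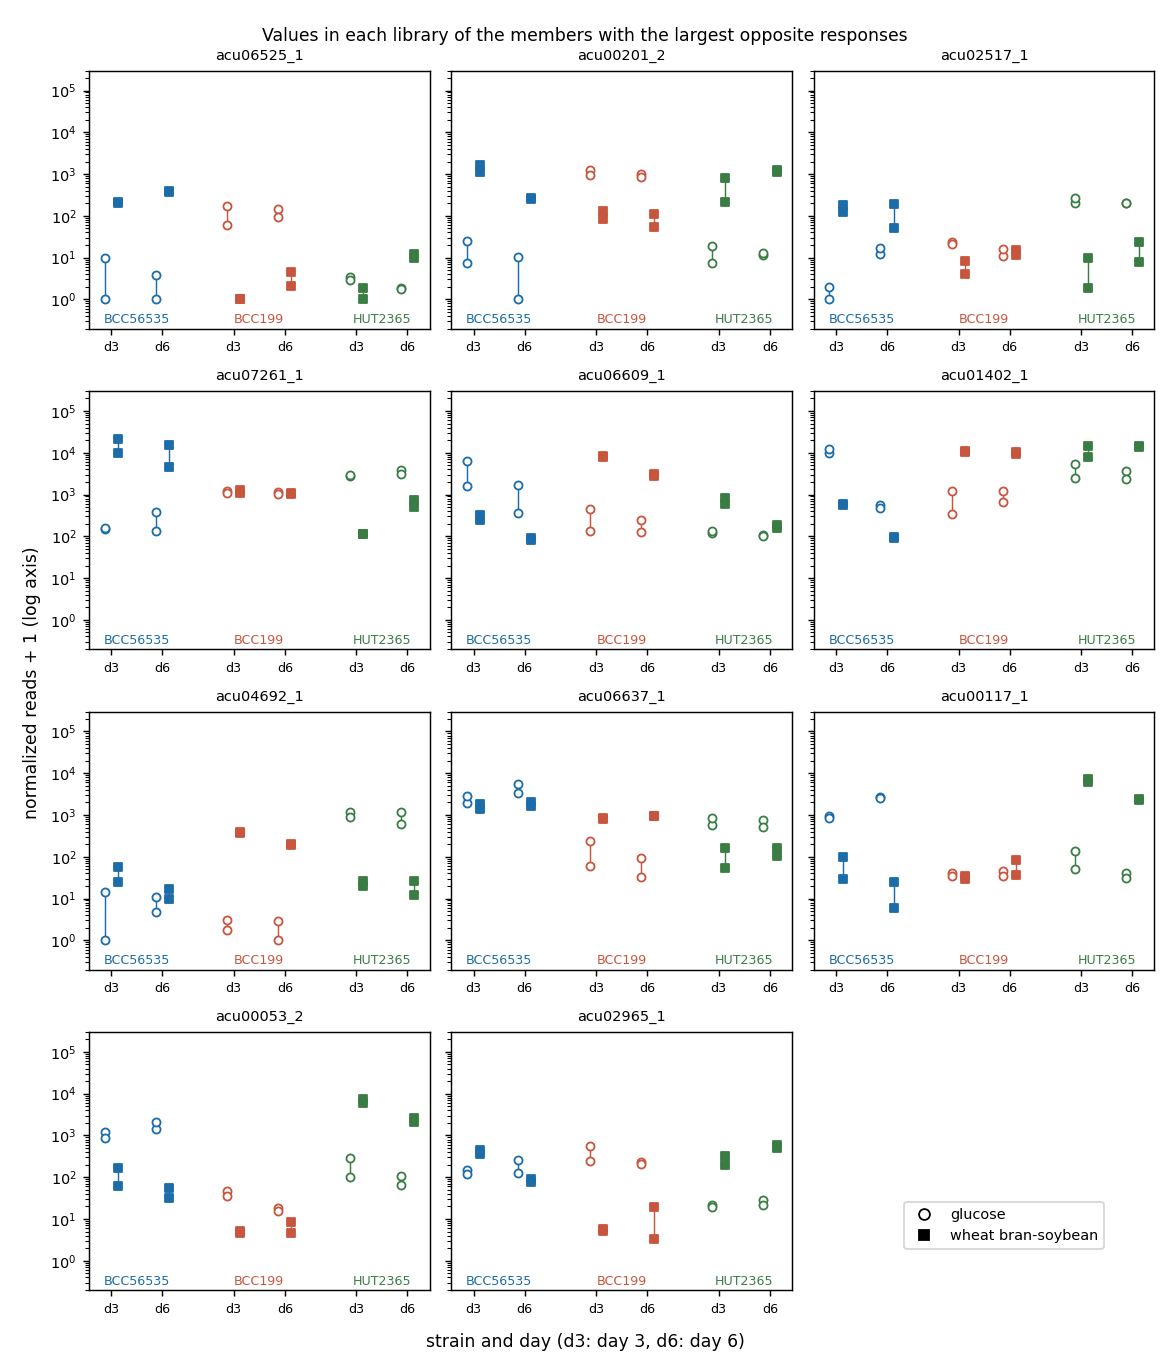
Normalized reads (log scale, with 1 added) of the 11 members named by ordered pair of strains in all 24 libraries, 1 panel each, by strain, medium and day, with 1 point per library (open for glucose, filled for wheat bran-soybean) and a line joining replicates. Filled points lie above open ones in the rising strain and below them in the falling strain, as in acu06525_1 with 0 reads in BCC199 wheat bran-soybean on day 3.

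Between BCC56535 and HUT2365, 6 members rose in BCC56535 and fell in HUT2365. The first by rank was acu02517_1. BCC56535 held 0 and 0.949 normalized reads in glucose and 177 and 121 in wheat bran-soybean on day 3, and 11.4 and 16.3 against 192 and 49.9 on day 6. HUT2365 held 198 and 265 normalized reads in glucose and 0.882 and 8.96 in wheat bran-soybean on day 3, and 199 and 198 against 6.67 and 22.8 on day 6. Media did not overlap in either strain, but BCC56535 glucose on day 3 held 1 read over both libraries, so no fold is given there. Without BCC56535 wheat bran-soybean day 6 A, the remaining library held 49.9 normalized reads, which is under the minimum.

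The second, acu07261_1, had high counts in both strains. BCC56535 held 149 and 157 normalized reads in glucose and 21356 and 10034 in wheat bran-soybean on day 3, and 371 and 136 against 15460.2 and 4567 on day 6. HUT2365 held 2797 and 2923 normalized reads in glucose and 111 and 112 in wheat bran-soybean on day 3, and 3858 and 3121 against 752 and 502 on day 6. BCC199 held 1054 to 1258 normalized reads in its 8 libraries, and there the 2 media overlapped. M was 6.67 and 5.30 in BCC56535, -4.67 and -2.48 in HUT2365, and 0.08 and -0.06 in BCC199. All 6 members of this direction were also called by limma (0.717% of all tested IDs), and M ran from 1.54 to 6.67 in BCC56535 and from -4.67 to -1.55 in HUT2365, with 1 of 12 responses left out in each.

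The opposite direction, up in HUT2365 and down in BCC56535, held 21 members. It was led by acu00117_1. BCC56535 held 923 and 833 normalized reads in glucose and 29.0 and 99.3 in wheat bran-soybean on day 3, and 2644 and 2615 against 24.4 and 4.89 on day 6. HUT2365 held 49.3 and 133 normalized reads in glucose and 7326 and 6159 in wheat bran-soybean on day 3, and 38.8 and 30.8 against 2449 and 2278 on day 6. In BCC199, all 8 libraries held between 28.9 and 81.9 normalized reads. M was -3.75 and -7.39 in BCC56535 and 6.20 and 6.05 in HUT2365, and the media did not overlap in either strain.

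The next by rank was acu00053_2. BCC56535 held 1185 and 846 normalized reads in glucose and 61.7 and 161 in wheat bran-soybean on day 3, and 1451 and 2089 against 54.1 and 31.3 on day 6. HUT2365 held 101 and 283 normalized reads in glucose and 7324 and 5964 in wheat bran-soybean on day 3, and 107 and 65.6 against 2624 and 2118 on day 6. Both IDs were high in the same media of the same strains, and in HUT2365 wheat bran-soybean their values were near each other library by library. This likeness was seen after the values were known and was not tested, and whether the 2 IDs share reads was not tested. M of acu00053_2 was -3.18 and -5.34 in BCC56535 and 5.10 and 4.76 in HUT2365. Over the 21 members, M ran from 1.503 to 9.45 in HUT2365 and from -7.39 to -1.53 in BCC56535, with 1 of 42 responses left out in BCC56535, and 17 of the 21 were also called by limma (0.729% of all tested IDs).

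Between BCC199 and HUT2365, 6 members rose in BCC199 and fell in HUT2365. acu04692_1 had the largest limiting response of all 78 members. BCC199 held 0.796 and 2.06 normalized reads in glucose and 379.7 and 395 in wheat bran-soybean on day 3, and 1.84 and 0 against 192 and 206 on day 6. HUT2365 held 1155 and 896 normalized reads in glucose and 25.6 and 19.4 in wheat bran-soybean on day 3, and 604 and 1176 against 11.1 and 25.6 on day 6. Each strain was near 0 or low in the medium in which the other was high, and the media did not overlap in either. BCC199 glucose held 3 reads on day 3 and 2 on day 6 over both libraries, so no fold is given for that strain. In HUT2365, M was -5.45 and -5.52.

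acu06637_1 followed with smaller differences. BCC199 held 58.1 and 241 normalized reads in glucose and 809 and 845 in wheat bran-soybean on day 3, and 31.3 and 90.0 against 924 and 945 on day 6. HUT2365 held 561 and 854 normalized reads in glucose and 157 and 52.3 in wheat bran-soybean on day 3, and 743 and 516 against 162 and 101 on day 6. M was 2.46 and 3.92 in BCC199 and -2.75 and -2.25 in HUT2365. BCC56535 held more than HUT2365 in every group, 1420.1 to 5465 normalized reads. Of the 6 members, 5 were also called by limma (0.881% of all tested IDs), with M from 1.51 to 3.92 in BCC199, with 2 of 12 responses left out, and from -5.52 to -1.62 in HUT2365.

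The largest class, up in HUT2365 and down in BCC199, held 34 members and was led by acu02965_1. BCC199 held 548 and 238 normalized reads in glucose and 4.13 and 4.67 in wheat bran-soybean on day 3, and 236 and 212 against 18.6 and 2.34 on day 6. HUT2365 held 20.1 and 18.6 normalized reads in glucose and 317 and 191 in wheat bran-soybean on day 3, and 27.1 and 20.5 against 575 and 501 on day 6. Media did not overlap in either strain. M was -6.19 and -4.29 in BCC199 and 3.65 and 4.44 in HUT2365. On each day BCC199 held at most 20 reads in wheat bran-soybean over both libraries, so the size of its M depends on the constant of 1. In BCC56535 M was 1.62 and -1.21, so that strain had the sign of HUT2365 on day 3 and of BCC199 on day 6. The second by rank was acu00201_2, described above. Over the 34 members, M ran from 1.53 to 6.80 in HUT2365 and from -6.85 to -1.503 in BCC199, with 1 and 3 of 68 responses left out, and 30 of the 34 were also called by limma (1.46% of all tested IDs).

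Members that passed the limit in all 3 strains showed 4 patterns. In 4, BCC56535 fell and both other strains rose, and acu02488_1 led these. BCC56535 held 6489.6 and 18767 normalized reads in glucose and 2002 and 2888 in wheat bran-soybean on day 3, and 880.0 and 4501 against 13.8 and 22.5 on day 6. BCC199 held 356 and 741 normalized reads in glucose and 12334 and 11927 in wheat bran-soybean on day 3, and 378 and 317 against 7751 and 6238 on day 6. HUT2365 held 153 and 231 normalized reads in glucose and 8212 and 6749 in wheat bran-soybean on day 3, and 91.1 and 100.4 against 1549 and 1152 on day 6. Within a day, media did not overlap in any strain. Without BCC56535 glucose day 3 B, M in BCC56535 on day 3 was -1.41, which ended its membership.

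In 3 members, HUT2365 rose and both other strains fell, led by acu07248_1. BCC56535 held 543 and 673 normalized reads in glucose and 45.8 and 115 in wheat bran-soybean on day 3, and 339.6 and 995 against 155 and 106 on day 6. BCC199 held 844 and 560.2 normalized reads in glucose and 142 and 143 in wheat bran-soybean on day 3, and 532 and 279 against 109 and 74.9 on day 6. HUT2365 held 91.9 and 115 normalized reads in glucose and 4226 and 9058 in wheat bran-soybean on day 3, and 42.4 and 33.2 against 727 and 823 on day 6. HUT2365 was the lowest strain in glucose and the highest in wheat bran-soybean on both days. M was -2.90 and -2.35 in BCC56535, -2.29 and -2.13 in BCC199, and 5.99 and 4.32 in HUT2365. In 1 member, acu00907_1, BCC199 rose and both other strains fell. BCC56535 held 9892 and 7621 normalized reads in glucose and 131 and 98.3 in wheat bran-soybean on day 3, and 16869 and 12295 against 440.1 and 447 on day 6. BCC199 held 79.6 and 127 normalized reads in glucose and 676 and 683 in wheat bran-soybean on day 3, and 105 and 132 against 476 and 479.7 on day 6. HUT2365 held 1809 and 1560.4 normalized reads in glucose and 430.4 and 467 in wheat bran-soybean on day 3, and 1735 and 2096 against 630.5 and 616 on day 6. In wheat bran-soybean the strains lay closer to each other than in glucose, where BCC56535 was the highest and BCC199 the lowest.

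In most members the strains changed rank between media. A member was counted as crossing when the rising strain was below the falling strain in glucose and above it in wheat bran-soybean, on both days. This held in 28 of the 34 members up in HUT2365 and down in BCC199, and in 17 of them by at least 2-fold in each medium. It held in 14 of 21 up in HUT2365 and down in BCC56535, in 9 of 13 up in BCC199 and down in BCC56535, and in 6 of 7 in the reverse. The counts were 5 of 6 up in BCC56535 and down in HUT2365, and 3 of 6 up in BCC199 and down in HUT2365. In the remaining cases, the rising strain was the higher in both media in 3, the falling strain in 5, and the order depended on the day in 14. Opposite responses favour such crossing by their construction, so these counts are a description.

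**Figure D3:**
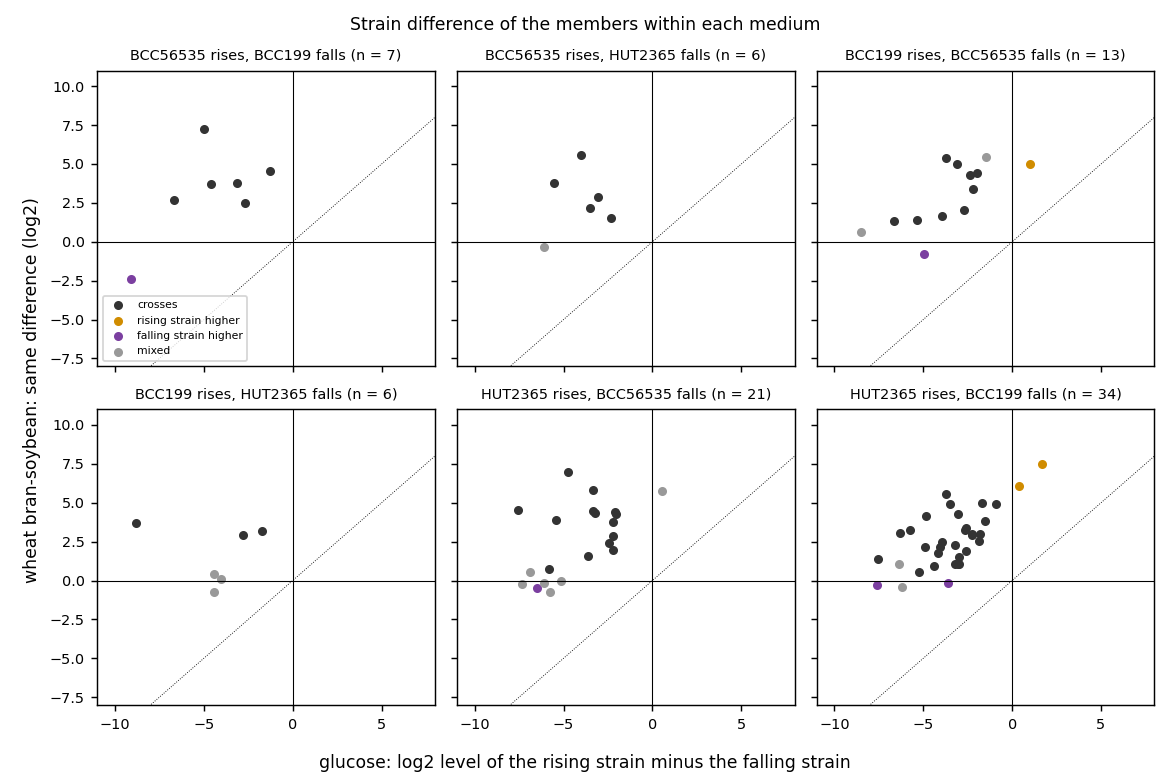
Difference between the rising and the falling strain (log2, mean of the 2 days) in glucose (x axis) and in wheat bran-soybean (y axis), with 1 panel per ordered pair and 1 point per member, coloured by whether the strains cross. Points to the left of and above the zero lines are members in which the falling strain was higher in glucose and the rising strain higher in wheat bran-soybean, and most points lie there.

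In the strain outside the pair, the sign of M differed between days in 30 of 87 cases (34.5%), and in 10 of 53 (18.9%) outside the class up in HUT2365 and down in BCC199. These cases include the 9 members that passed the limit in all 3 strains, each in more than 1 pair. In them the strain outside the pair passed the limit on both days, so its sign could not differ. Among the 34 members up in HUT2365 and down in BCC199, M in BCC56535 changed sign between day 3 and day 6 in 20, from above to below 0 in 11 and from below to above in 9. It was above 0 on both days in 4 and below 0 on both days in 10. Of these, 1 rose and 3 fell in BCC56535 by the rule. Among all tested IDs, the sign of M differed between days in 36.6% in BCC56535, 22.2% in BCC199 and 18.6% in HUT2365. With such fixed cases among the members, their shares are not compared with these. In 5 of the 34 members, M in BCC56535 was past 1.5 in opposite directions on the 2 days. These IDs, singled out after their values were seen, were acu00271_2, acu02733_1, acu03250_1, acu04734_1 and acu07736_1. In acu04734_1, M in BCC56535 was -3.40 and 3.94 on days 3 and 6, and in acu03250_1 it was 3.49 and -1.57. Among the 21 members up in HUT2365 and down in BCC56535, M in BCC199 changed sign between days in 4. Among the 13 up in BCC199 and down in BCC56535, M in HUT2365 was above 0 on both days in 9.

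Strain levels, averaged over media and days, were tested with limma. The rule set no limit on differences between strains, but its minimum mean for the higher group acted on levels. The levels of members are therefore not independent of how the members were chosen. Between BCC56535 and BCC199, 28 members were higher and 34 lower in BCC56535, against 37.3% and 36.5% of all 8509 tested IDs. Between HUT2365 and BCC199, 29 were higher and 30 lower in HUT2365, against 38.1% and 36.4%. Between BCC56535 and HUT2365, 28 were higher and 32 lower in BCC56535, against 35.9% and 34.9%. Counted either way, 79.5%, 75.6% and 76.9% of the members were called in these comparisons, against 73.8%, 74.5% and 70.8% of all IDs. The members' shares were near the background, and so are not a result about the members. The median absolute log2 difference was 1.56, 1.44 and 1.21 in the members, and 0.70, 0.70 and 0.63 in all tested IDs.

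The largest such differences reached IDs that were almost silent in a strain. acu00558_2 was higher in both other strains than in BCC199. BCC56535 held 367 and 6944 normalized reads in glucose and 302 and 1634 in wheat bran-soybean on day 3, and 1278 and 3610.3 against 115 and 17.6 on day 6. BCC199 held 1.59 and 3.08 normalized reads in glucose and 0 and 0 in wheat bran-soybean on day 3, and 0.921 and 2.07 against 0 and 1.17 on day 6. HUT2365 held 12.5 and 12.1 normalized reads in glucose and 5701 and 12951 in wheat bran-soybean on day 3, and 21.6 and 14.2 against 3738 and 3781 on day 6. Every library of BCC56535 and HUT2365 lay above every library of BCC199, which held between 0 and 3.08 normalized reads. limma gave a log2 difference of 7.64 ± 0.53 (SE), adjusted p = 1.11e-09 for BCC56535 and of 6.72 ± 0.53 (SE), adjusted p = 5.41e-09 for HUT2365, sizes that depend on the constant added and ran from 5.69 to 8.85 and from 4.99 to 7.88 over the alternatives. In BCC56535 glucose on day 3 its replicates lay far apart, 367 against 6944.

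acu00365_1 was the second of this kind. BCC56535 held 7303 and 7858 normalized reads in glucose and 409 and 1321 in wheat bran-soybean on day 3, and 348 and 578 against 53.0 and 170.2 on day 6. BCC199 held 0.796 and 1.03 normalized reads in glucose and 1.03 and 0 in wheat bran-soybean on day 3, and 0 and 1.03 against 32.9 and 4.68 on day 6. Strains did not overlap, and the log2 difference was 7.44 ± 0.61 (SE), adjusted p = 9.61e-09 (limma), from 5.67 to 8.53 over the alternatives. For acu00000_5, HUT2365 held 425 to 17500.3 normalized reads and BCC199 4.39 to 276, and the log2 difference was 5.75 ± 0.43 (SE), adjusted p = 3.05e-09 (limma). In BCC56535 glucose on day 3, acu00000_5 held 312 and 3906 normalized reads, so B was the higher replicate in both acu00000_5 and acu00558_2.

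Averaged over media and days, other members were highest in BCC199. acu04734_1 had the highest value of any member in a single library, with no correction for length. BCC56535 held 223 and 905 normalized reads in glucose and 48.6 and 56.7 in wheat bran-soybean on day 3, and 244 and 205 against 4113 and 2789 on day 6. BCC199 held 126850.0 and 100230.0 normalized reads in glucose and 8791 and 10405 in wheat bran-soybean on day 3, and 180325 and 158744 against 10637 and 30315 on day 6. BCC199 lay above BCC56535 in every library, and the log2 difference of BCC56535 from BCC199 was -6.84 ± 0.31 (SE), adjusted p = 5.37e-12 (limma). HUT2365 held 10154 and 12337 normalized reads in wheat bran-soybean on day 3, and there it overlapped BCC199. For acu00633_1, BCC199 held 177 to 35031 normalized reads, BCC56535 17.6 to 444 and HUT2365 115 to 539.7. Its difference from BCC199 was -5.79 ± 0.20 (SE), adjusted p = 1.57e-13 in BCC56535 and -4.40 ± 0.20 (SE), adjusted p = 4.76e-12 in HUT2365 (limma). For acu07190_1, HUT2365 held 7.90 to 330.0 normalized reads against 1215 to 9779.9 in BCC199, a log2 difference of -5.93 ± 0.27 (SE), adjusted p = 6.67e-12 (limma). In glucose, BCC56535 held 1784 and 2055 normalized reads of this ID on day 3 and 1382 and 3871 on day 6, and overlapped BCC199.

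Between BCC56535 and HUT2365, acu00538_2 differed most. BCC56535 held 52343 and 56073 normalized reads in glucose and 25666 and 26732 in wheat bran-soybean on day 3, and 71689 and 66919 against 17239 and 23610.0 on day 6. HUT2365 held 293 and 415 normalized reads in glucose and 1494 and 1044 in wheat bran-soybean on day 3, and 307 and 311 against 1359 and 921 on day 6. It was higher in BCC56535 in every library, with a log2 difference of 5.91 ± 0.13 (SE), adjusted p = 9.13e-16 (limma). acu00110_2 held 220.1 to 964 in BCC56535 and 2.71 to 215 in HUT2365, a difference of 4.06 ± 0.23 (SE), adjusted p = 1.18e-10. Among the members lower in BCC56535, acu00217_2 held 73.2 to 869 in BCC56535 and 664 to 20638 in HUT2365, a difference of -3.66 ± 0.40 (SE), adjusted p = 3.83e-07 (limma). acu03617_1 held 295 to 3613 and 1942 to 16118, a difference of -3.50 ± 0.23 (SE), adjusted p = 5.55e-10 (limma). For both IDs these ranges, taken over both media, overlapped. In wheat bran-soybean every HUT2365 library lay above every BCC56535 library for both IDs. In glucose this held for acu03617_1, while acu00217_2 overlapped.

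The rule likewise set no limit on the change between days, averaged over media, but its minimum mean had to be met on both days. The day change of members is therefore not independent of how they were chosen either. In BCC56535, 16 members were higher and 26 lower on day 6 than on day 3 (limma, adjusted p below 0.05), against 16.8% and 19.3% of all tested IDs. Either way this was 53.8% of the members and 36.0% of all IDs. In BCC199, 8 were higher and 2 lower, against 4.31% and 3.3% of all IDs, or 12.8% against 7.62% either way. In HUT2365, 2 were higher and 2 lower, against 0.588% and 0.517%, or 5.13% against 1.1% either way, and 2 to 6 members were called when single libraries were left out. The day change differed among the strains (limma, F test) in 31 members, 39.7%, against 21.9% of all IDs. Replicate spread was also larger in members, and the median absolute day change was 0.95 against 0.38 (log2) in BCC56535, 0.47 against 0.21 in BCC199, and 0.50 against 0.18 in HUT2365. Nothing particular to the members is read from these shares.

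**Figure D4:**
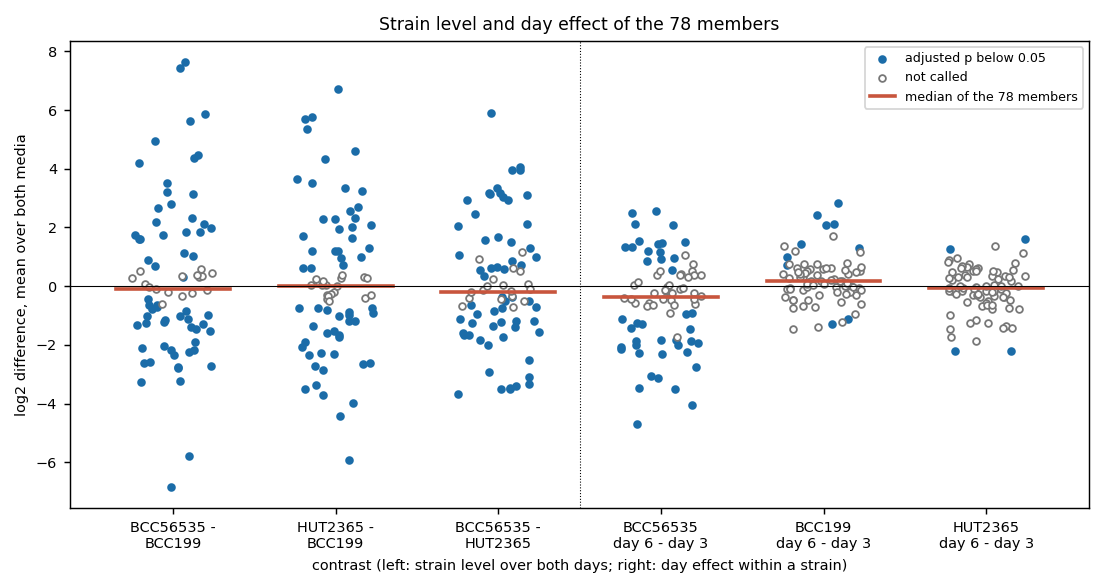
Log2 difference (y axis, mean over both media) of each of the 78 members in the 3 strain-level contrasts and the 3 day contrasts (x axis), with 1 point per member, filled where limma gave an adjusted p below 0.05, and a line at the median. Members lie on both sides of 0 in each contrast, and of the day contrasts BCC56535 has the most filled points, 42 in all.

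In BCC56535, more of the members that fell in wheat bran-soybean were lower on day 6 than higher, and more of those that rose were higher than lower. Of the 30 falling members, 16 were called lower and 3 higher on day 6, and of all 379 IDs that fell by the rule in BCC56535, 29% were lower and 9.23% higher. Of the 13 rising members, 6 were called higher and 1 lower, and of all 359 rising IDs 24% were higher and 23.4% lower. In BCC199, 6 of the 40 falling members were called higher on day 6 and 0 lower, while of all 539 falling IDs 10.8% were higher and 3.34% lower.

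The members with the largest fall between days in BCC56535 were acu02488_1, whose values are given above, and acu02493_1. acu02488_1 changed by -4.70 ± 0.41 (SE), adjusted p = 4.59e-07 (limma). For acu02493_1, BCC56535 held 5385 and 7952 normalized reads in glucose and 1203 and 3418 in wheat bran-soybean on day 3, and 467 and 1123 against 55.1 and 73.4 on day 6. Every day 6 library of acu02493_1 in BCC56535 lay below every day 3 library, and the log2 change was -4.06 ± 0.31 (SE), adjusted p = 1.39e-07 (limma). It also fell in BCC199, and its log2 difference between days was -1.30 ± 0.31 (SE), adjusted p = 0.0155 (limma). That call was lost without any of glucose day 6 B, wheat bran-soybean day 3 A or B, and wheat bran-soybean day 6 B of BCC199, at adjusted p from 0.0528 to 0.0827.

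Rises between days were led by acu00735_1 in BCC56535. BCC56535 held 75.8 and 50.3 normalized reads in glucose and 707 and 614 in wheat bran-soybean on day 3, and 349.7 and 304 against 4995 and 3943 on day 6. HUT2365 held 4214 and 3727 normalized reads in glucose and 175 and 615 in wheat bran-soybean on day 3, and 4795 and 4872 against 2592 and 2341 on day 6. Day 6 lay above day 3 within each medium in both strains, with log2 changes of 2.56 ± 0.27 (SE), adjusted p = 2.94e-06 in BCC56535 and 1.59 ± 0.27 (SE), adjusted p = 0.00541 in HUT2365 (limma). acu07381_1 rose in BCC56535 by 2.11 ± 0.56 (SE), adjusted p = 0.00765, and the adjusted p was 0.0502 without glucose day 6 A. In BCC199 the largest rises, among called members with the same sign in both media, were those of acu00217_2, 2.84 ± 0.57 (SE), adjusted p = 0.00492, and acu03424_1, 2.13 ± 0.46 (SE), adjusted p = 0.00786 (limma). For acu00217_2, BCC199 held 1569 and 2214 normalized reads in glucose and 39.2 and 59.8 in wheat bran-soybean on day 3, and 6474 and 3296 against 914 and 1195 on day 6. Day 6 lay above day 3 within each medium for acu00217_2, while for acu03424_1 the days overlapped in glucose. acu00335_2 fell in BCC199, and its log2 difference between days was -1.12 ± 0.21 (SE), adjusted p = 0.00282 (limma).

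In HUT2365, acu07248_1 fell, and its log2 difference between days was -2.20 ± 0.36 (SE), adjusted p = 0.00451 (limma), and its values are given above. The calls of acu06282_1 and acu02494_1 in HUT2365 were lost under many alternatives. For acu06282_1, HUT2365 held 7473 and 7599.8 normalized reads in glucose and 602 and 656 in wheat bran-soybean on day 3, and 10007 and 8174 against 2729 and 3463 on day 6. acu06282_1 rose by 1.28 ± 0.29 (SE), adjusted p = 0.0486 (limma). Of 17 settings, the main fit included, 11 gave no call, with an adjusted p of up to 0.185 (limma). acu02494_1 changed by -2.21 ± 0.50 (SE), adjusted p = 0.0432 (limma), and 9 of the 17 settings gave no call, with an adjusted p of up to 0.235.

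Some members stood close together in ID number. An ID holds a number prefix and a member number, and the sources used here do not say what these stand for. Of the 78 members, 17 (21.8%) shared a prefix with another ID, against 1009 of 8615 (11.7%), and 0 shared a prefix with another member. Of the 29 partner IDs, 12 passed the limit in at least 1 strain and 0 in more than 1. Of all 8615 IDs, 1919 passed in at least 1 strain and 613 in at least 2. Another member stood at the next or previous number for 8 members (10.3%). No share over all IDs was computed for this, so nothing is read from it.

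A run of 5 members between numbers 2485 and 2504, acu02485_1, acu02488_1, acu02493_1, acu02494_1 and acu02504_1, fell in BCC56535, and another 5 members lay between numbers 92 and 117. Of the 19 IDs numbered 2485 to 2504, members included, 8 (42.1%) had M of -1 or less in BCC56535 and 1 or more in both other strains on day 3, as did 93 of all 8615 IDs (1.08%). All 5 members are among these 8, and the others were acu02486_1, acu02487_1 and acu02489_1. The rule chose the members on these same M values, and the members set the window, so the share is not a test. The window and the limit were chosen after the values were seen. acu02494_1 is shown in full, as the member of the run with the most normalized reads, uncorrected for length. BCC56535 held 68406 and 75765 normalized reads in glucose and 10167 and 19628 in wheat bran-soybean on day 3, and 9874 and 21836 against 900.4 and 913 on day 6. BCC199 held 2187 and 2806 normalized reads in glucose and 23715 and 22668 in wheat bran-soybean on day 3, and 2477 and 1376 against 6175 and 5416 on day 6. HUT2365 held 187 and 945 normalized reads in glucose and 4188 and 6566 in wheat bran-soybean on day 3, and 138 and 19.8 against 2034 and 1756 on day 6. BCC56535 was the highest strain in glucose on both days, and the lowest in wheat bran-soybean on day 6. The neighbours acu06281_1 and acu06282_1 had opposite patterns, since M of acu06281_1 was 1.68 and 3.98 and M of acu06282_1 was -3.58 and -1.55 in HUT2365.

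**Figure D5:**
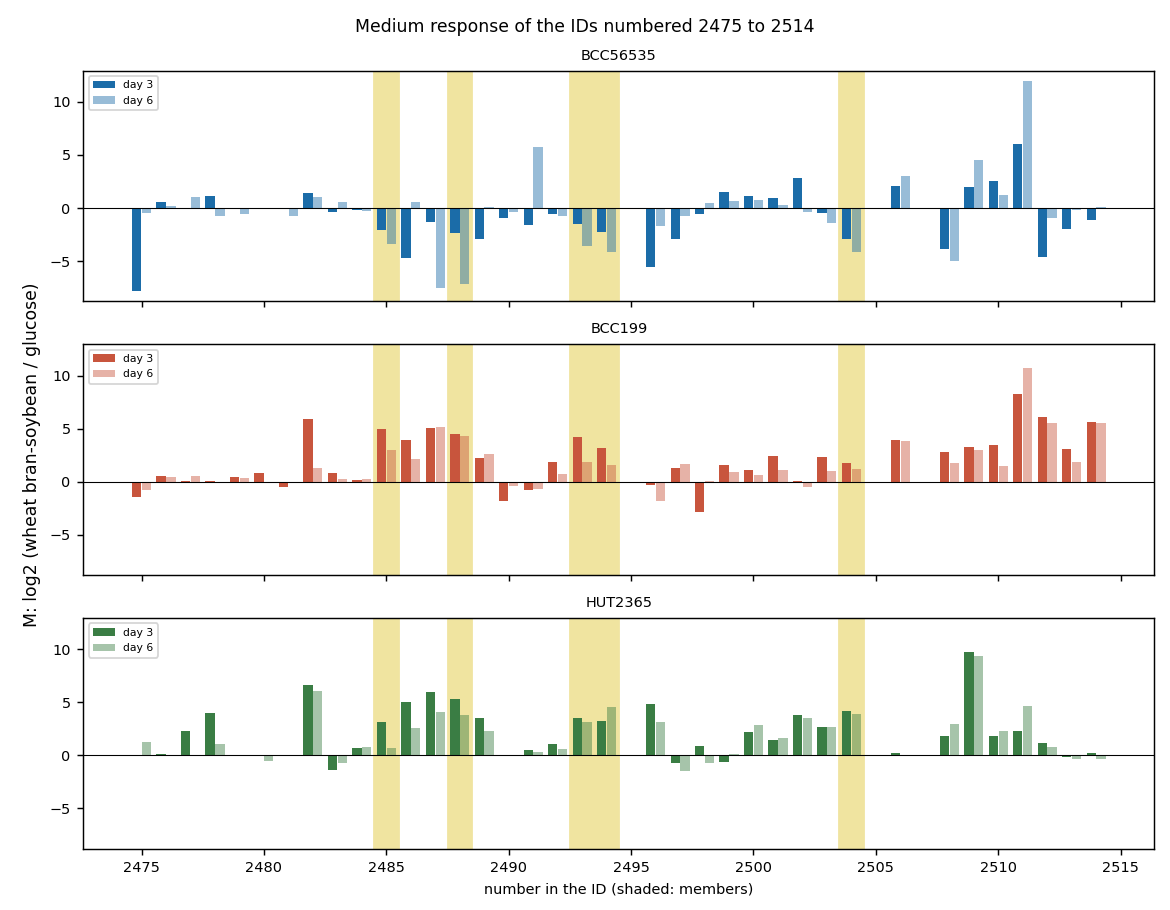
Medium response M (log2, y axis) on day 3 and day 6 (bars) for the IDs numbered around 2485 to 2504 (x axis, in order of number), 1 panel per strain, with members shaded. BCC56535 lies below 0 and both other strains above 0 at the 5 members.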

How the data were processed

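RNA-seq was measured in 24 libraries of 12 groups with 2 replicates each. The deposited values are a normalized signal for 8615 IDs. In each library the deposited value less 1 was a whole multiple of 1 step for 100% of IDs (within 0.02 of a step), so depth in reads could be recovered. HISAT2 2.1.0, StringTie and Picard appear in the submitters' processing notes. The sources used here do not give their roles, the genome build, the annotation or the normalization, so reads shared between similar IDs could not be separated. M was computed on the deposited values, constant of 1 included. A fit of log2(deposited value + 1) was made in limma 3.58.1 (R 4.3.3), with 12 group means, a trended variance and 12 residual degrees of freedom. IDs that reached 10 in 2 or more libraries were kept (8509 tested, 106 left out), and p-values were adjusted by Benjamini-Hochberg over all tested IDs. Contrasts were strain level over media and days, day 6 against day 3 over media, and an F test of the day change among strains. The fit was tested on simulated data. Named IDs were, per ordered pair, the 2 members with the largest limiting response and no overlap of replicates, 1 per pattern over 3 strains, and, per tested contrast, the 2 higher and 2 lower called members with the largest log2 difference, the same sign throughout and a mean of at least 100. Members and rules were chosen with earlier results of these data known. Alternatives changed the limit, the minimum, the replicates, the scaling, the pseudocount, the filter, voom weights on recovered reads, a replicate block and the libraries used.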

Additional observations from a re-analysis of the deposited data

Results flagged for a closer look

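The change from day 3 to day 6, averaged over media, differed among the 3 strains in 31 of the 78 members (limma, F test, adjusted p below 0.05). That was 39.7% of the members, against 21.9% of all 8509 tested IDs, and nothing particular to the members is read from it. Among the members named above, the adjusted p of this difference was 7.81e-05 for acu01402_1, 0.000241 for acu02493_1, 0.000383 for acu02488_1, 0.000886 for acu00907_1, 0.00187 for acu00217_2, 0.00202 for acu00335_2 and 0.00488 for acu07248_1. It was 0.00558 for acu04734_1, 0.0109 for acu00633_1, 0.0173 for acu00365_1, 0.0252 for acu00110_2, 0.0254 for acu03424_1, 0.0302 for acu00201_2 and 0.0425 for acu07261_1. The cause was not tested.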

How the results depend on the processing

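No called log2 difference of a named ID changed direction under the alternatives run. In 6 members, a response M that made them a member changed sign when single libraries were left out. With M past 1 in place of 1.5 there were 183 members, by pair 24 (BCC56535 up, BCC199 down), 21 (BCC56535 up, HUT2365 down), 32 (BCC199 up, BCC56535 down), 20 (BCC199 up, HUT2365 down), 46 (HUT2365 up, BCC56535 down) and 70 (HUT2365 up, BCC199 down). With M past 2 there were 40, in the same order 2, 4, 5, 2, 13 and 17. With a minimum of 500 there were 46, with 3 (BCC56535 up, BCC199 down), 8 (BCC199 up, BCC56535 down), 2 (BCC199 up, HUT2365 down) and 17 (HUT2365 up, BCC199 down) among those that moved. Replicate A alone gave 11 up in BCC56535 and down in HUT2365. Taking the minimum of 100 over both days, chosen after seeing the data, gave 93 members, 32 of them up in HUT2365 and down in BCC56535. Without the filter on low values, 2 members had a day change in HUT2365. With only the libraries of the strain itself, 1842 IDs had a day change in BCC56535, 1074 IDs and 17 members in BCC199, and 207 IDs and 12 members in HUT2365, against 3065, 648 and 10, and 94 and 4. Leaving out each library in turn gave 71 to 86 members, and by pair 5 to 9 (BCC56535 up, BCC199 down), 4 to 8 (BCC56535 up, HUT2365 down), 9 to 17 (BCC199 up, BCC56535 down), 4 to 7 (BCC199 up, HUT2365 down), 18 to 26 (HUT2365 up, BCC56535 down) and 30 to 38 (HUT2365 up, BCC199 down). Day changes were then called in 360 to 654 IDs and 8 to 14 members in BCC199, and in 29 to 153 IDs and 2 to 6 members in HUT2365. Settings that leave out libraries have fewer of them, and the cause of the shifts was not tested. The replicate letters did not pair the libraries (correlations of replicate differences between groups from -0.483 to 0.229). With a replicate block, 43 members had a day change in BCC56535 and 32 a difference among strains, and the calls of acu06282_1 (adjusted p = 0.0567, limma) and acu02494_1 (0.0513) in HUT2365 were lost. Depth limits responses in the 9 members with at most 20 reads in a lower group.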
